A study of Homo sapiens with 6 samples.

Results

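Long intergenic noncoding RNAs that carry a LINC symbol were followed in LN229 cells, an established human glioblastoma line, with and without overexpression of LACTB. A LINC symbol is the nomenclature committee's placeholder for a transcript, usually spliced and polyadenylated, that was taken to lie outside protein-coding genes without a coding function. Not every member fits that description in the annotation used here, as given below. The deposited table held 836 such symbols among 24480, and the 140 whose mean over all 6 libraries reached 38 normalized read counts were taken as measured. They were chosen by that mean level, so their levels are given as a description, and the comparison between groups is read against the same comparison over all genes.

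Long noncoding RNAs of this kind act in the nucleus or the cytoplasm, as scaffolds for chromatin or RNA-binding proteins, as hosts of microRNAs, or through the act of their own transcription beside a neighbouring gene. Many are restricted to a few tissues and are present at low levels, and for most no function is known. In glioma several are known for levels that differ from those of normal brain, among them LINC00511, LINC01116 and LINC00461, the last a brain-enriched RNA.

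Both groups were LN229 cells that had been transduced. The LACTB group comprised 3 libraries of cells that overexpress LACTB, a mitochondrial protein related to bacterial beta-lactamases, and the vector group 3 libraries of cells that received the vector alone. The labels name neither the promoter that drives LACTB nor whether a line was a clone or a pool. They also do not say whether the libraries of a group are separate cultures, so the p-values reflect library-to-library spread that could be purely technical. The comparison asks what LACTB does in glioma cells.

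LACTB itself stood at 4268, 4078 and 4203 normalized read counts in the LACTB libraries, against 458, 515 and 393 in the vector libraries (log2 difference 3.21, SE 0.13, limma adjusted p = 2.9e-14). Column totals were 34907394 to 35683869 normalized counts in the LACTB libraries and 38049489 to 41384595 in the vector libraries, and the reads behind them are unknown. Of 7 glial and neural markers all were above 0 in every library, with a summed level of 110980 to 111990 in LACTB and 105680 to 112860 in vector libraries. Of the 7, 4 were higher (GFAP, SOX2, VIM and CD44) and 2 lower (S100B and OLIG2) with LACTB, and S100B averaged 14499 in LACTB and 33778 in vector libraries while SOX2 averaged 2674 in LACTB and 1131 in vector libraries. The epithelial markers EPCAM and CDH1 did not exceed 2.10 and 20.9. The endothelial markers PECAM1 and VWF stood at 34.2 to 61.5 and at 100 to 195 over the libraries, and neither was called. Of the leukocyte markers PTPRC did not exceed 14.6, while CD68 was higher with LACTB (1614 in LACTB and 1076 in vector libraries). Of 5 melanocytic markers 3 passed the low-value filter and all 3 were lower with LACTB. The summed level of all 5 was 583 to 736 in LACTB libraries and 3116 to 3959 in vector libraries, with TYR listed at 0 in the LACTB libraries. The part of these differences in any result on LINC RNAs was not tested.

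LINC RNAs were a small share of the signal in both groups. Together the 140 measured RNAs took 0.0990%, 0.103% and 0.103% of the LACTB columns and 0.0887%, 0.0921% and 0.0868% of the vector columns. Summed over the 140, the level was 35327 to 36152 in LACTB libraries and 35049 to 36624 in vector libraries, so the sums overlapped and the shares differed as the column totals did. The median member had a mean of 91.8 and the members ranged from 38.4 to 6194. In each library between 120 and 129 of the 140 were at 38 or more. Spread between libraries was wide at these levels. The median coefficient of variation of a member was 14.8% over LACTB libraries and 15.9% over vector libraries, against 7.05% and 14.1% for all tested genes.

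LINC00511, an RNA of the interval near SOX9 on chromosome 17 (72290091 to 72640472, minus strand, GRCh38), held the highest level of the set. Its 6 values were 6633, 6836 and 6848 normalized read counts in LACTB libraries and 6063, 5299.7 and 5486 in vector libraries. LACTB libraries all lay above vector libraries, with a log2 difference of 0.27 (SE 0.11, adjusted p = 0.039 by limma). That call was lost under 9 alternatives, including median centring (adjusted p = 0.36), the replicate number as a block (0.054), and the removal of any library except vector library 1. Next by mean level came LINC00963 (2575), LINC01578 (1770), LINC00623 (1533), LINC01184 (1327) and LINC00205 (1213). Per kilobase of the longest annotated transcript, the order changed, with LINC00623 at 1847 and LINC00511 at 1645 normalized counts per kilobase, followed by LINC02732 at 755 and LINC01578 at 660. LINC00623 has near-identical copies in LINC01145 and LINC02591, so its level is uncertain.

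Just inside the limit of 38 stood LINC00629 with a mean of 38.4, LINC02577 with 38.4 and LINC02055 with 40.4. Just outside stood LINC01546 with 37.7, LINC00653 with 37.4 and LINC02615 with 37.1.

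With LACTB, 35 of the 140 LINC RNAs rose and 26 fell (limma adjusted p under 0.05 over all 12939 tested genes), while 79 did not pass. Over all tested genes 51.9% were called, 27.4% higher and 24.6% lower, against 43.6% of the LINC RNAs, 25% higher and 18.6% lower. The median log2 difference was 0.09 for the LINC RNAs and 0.05 for all tested genes. The split depends on scaling, with 29 rises and 35 falls after median centring, 30 and 34 with quantile normalization and 48 and 18 with equal column totals, and the LINC median at -0.04, -0.04 and 0.28. Of the 140, 18 rose and 10 fell by at least 2-fold, which is 12.9% and 7.14%, where all tested genes gave 6.34% and 4.48%. Selection by the overall mean bears on this: 14 of the 18 had a mean of 38 or more in LACTB only and 6 of the 10 in vector only. Among the 116 members at 38 or more in both groups, 4 rose and 4 fell by at least 2-fold, 3.45% each. The shares of all tested genes were not limited to genes at that level in both groups, so they are no like match.

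Shares within ranges of level differed from those of all tested genes in both directions. Of the 75 members with a mean of 38 to 100, 26.7% rose and 16% fell, beside 20.3% and 15% of tested genes in that range. By at least 2-fold, 18.7% rose and 9.33% fell, beside 13.4% and 10.2% of tested genes. Of the 42 members at 100 to 300, 28.6% rose and 16.7% fell, beside 33.1% and 15.4% of tested genes, and by at least 2-fold 9.52% rose and 4.76% fell, beside 10.6% and 6.7%. Of the 23 members at 300 or more none rose and LINC01819 alone fell by at least 2-fold, where 4.25% and 3.05% of tested genes did. In that range 3 rose at any size (LINC01116, LINC00665 and LINC00511) and 7 fell, that is 13% and 30.4%, beside 27.3% and 28.1% of tested genes. The plot of level and difference shows the widest differences at means of about 100 or less.

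**Figure D1:**
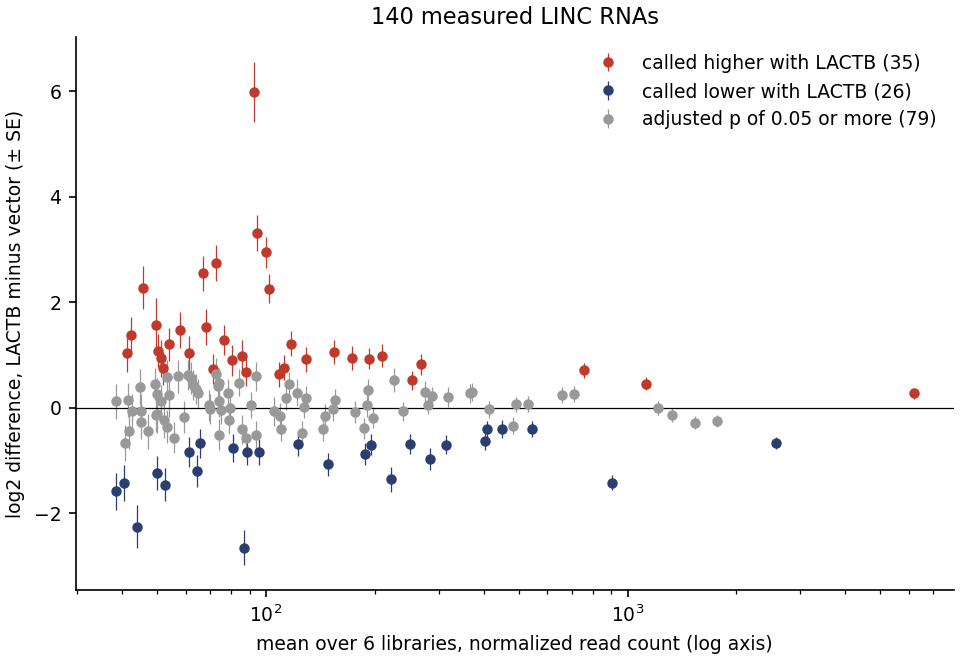
Log2 difference of the 140 measured LINC RNAs (LACTB minus vector, error bars are limma's SE) against the mean of the 6 libraries in normalized read counts on a log axis. Red points are the 35 called higher, blue the 26 called lower and grey the 79 not called. Differences reach 5.98 and -2.65 at means below 100, and LINC00511 stands alone at 6194.

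The group mean reached 38 in both groups for 116 members, in LACTB only for 16 and in vector only for 8, and members of the last 2 kinds had to differ in order to enter. Of the 116, 20 rose and 20 fell, 17.2% each, beside 27.4% and 24.6% of all tested genes, which were not limited in this way. Libraries of the groups did not overlap for 79 of the 140, with LACTB above for 44 (31.4%, all tested genes 31.1%) and below for 35 (25%, all tested genes 28.7%).

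The LINC RNAs with the largest rises were low in vector cells. Each of these leading rises had a group mean of 38 or more in LACTB only, so low vector values follow from how they entered the set. LINC00221, a lincRNA on chromosome 14 (106482439 to 106521073, plus strand) that lies among the variable segments of the immunoglobulin heavy chain locus, held 195, 169.9 and 180.1 normalized read counts in LACTB libraries, against 9.40, 0.0865 and 1.12 in vector libraries. No tested gene of any kind had a larger positive log2 difference (5.98, SE 0.57, adjusted p = 6.8e-08). Since its vector values lie near 0, the size follows the pseudocount, at 7.13 with 0.1 and 3.88 with 10. The vector columns all list 22538 rows above 0, so vector values near 0 may not be separate observations. Without vector library 1 it was 6.91 and without vector library 2 it was 5.28. LINC02241 (chromosome 5, 20611840 to 20937691, plus strand) held 149.9, 167 and 196 in LACTB libraries, against 25.4, 18.9 and 8.69 in vector libraries (3.31, SE 0.34, adjusted p = 7.8e-08). It lies 35967 bases from CDH18, a cadherin gene, which stood at 432 ± 36.7 in LACTB cells and 118 ± 26.1 in vector cells (SD, n = 3 each; log2 difference 1.88, limma adjusted p = 1.1e-07).

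LINC01419, an RNA of chromosome 8 (83403758 to 83408900), held 151, 191 and 191 in LACTB libraries, against 20.3, 30.8 and 17.1 in vector libraries (2.94, SE 0.29, adjusted p = 4.6e-08). LINC02714 (chromosome 11, 134735596 to 134763810, plus strand) held 121, 122 and 137, against 10.8, 17.9 and 29.5 in vector libraries (2.74, SE 0.34, adjusted p = 9.6e-07). In both, every LACTB library was more than 4 times as high as the highest vector library. LINC01694 (chromosome 21, 45593654 to 45603056) held 107, 143 and 93.4 with LACTB, against 13.98, 15.7 and 28.5 with vector (2.54, adjusted p = 2.1e-06), although the nearest tested coding gene, PCBP3, fell by 0.82 (-0.42, adjusted p = 0.12, with length and GC removed) and the 50 tested genes around it had a median of -0.39.

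LINC00942 (chromosome 12, 1500525 to 1504424) stood at 221, 146 and 143 in LACTB libraries and 36.2, 36.6 and 29.9 in vector libraries. Its log2 difference was 2.26 (adjusted p = 6.5e-07), and ERC1, a scaffold protein gene 4592 bases away, also rose, by 0.48 (0.20, adjusted p = 0.12, with length and GC removed). LINC00639 (chromosome 14, 38749339 to 38948273, minus strand) stood at 73.8, 67.1 and 82.5 with LACTB and 6.60, 26.3 and 17.0 with vector (2.28, adjusted p = 8.1e-05). The rise of these 2 RNAs was larger than the spread within either group.

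Smaller among the leading rises were LINC00342 (1.52), LINC01411 (1.47) and LINC02798 (1.38), with adjusted p of at most 0.0016. LINC00342, on chromosome 2, has near-identical copies elsewhere, so its value is uncertain. LINC02798, on chromosome 1, sits 3932 bases from SRGAP2C. LINC01411 on chromosome 5 held 46.9, 94.3 and 118 in LACTB libraries, against 23.6, 32.1 and 30.8 in vector libraries, so the LACTB libraries spread over more than 2-fold.

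**Figure D2:**
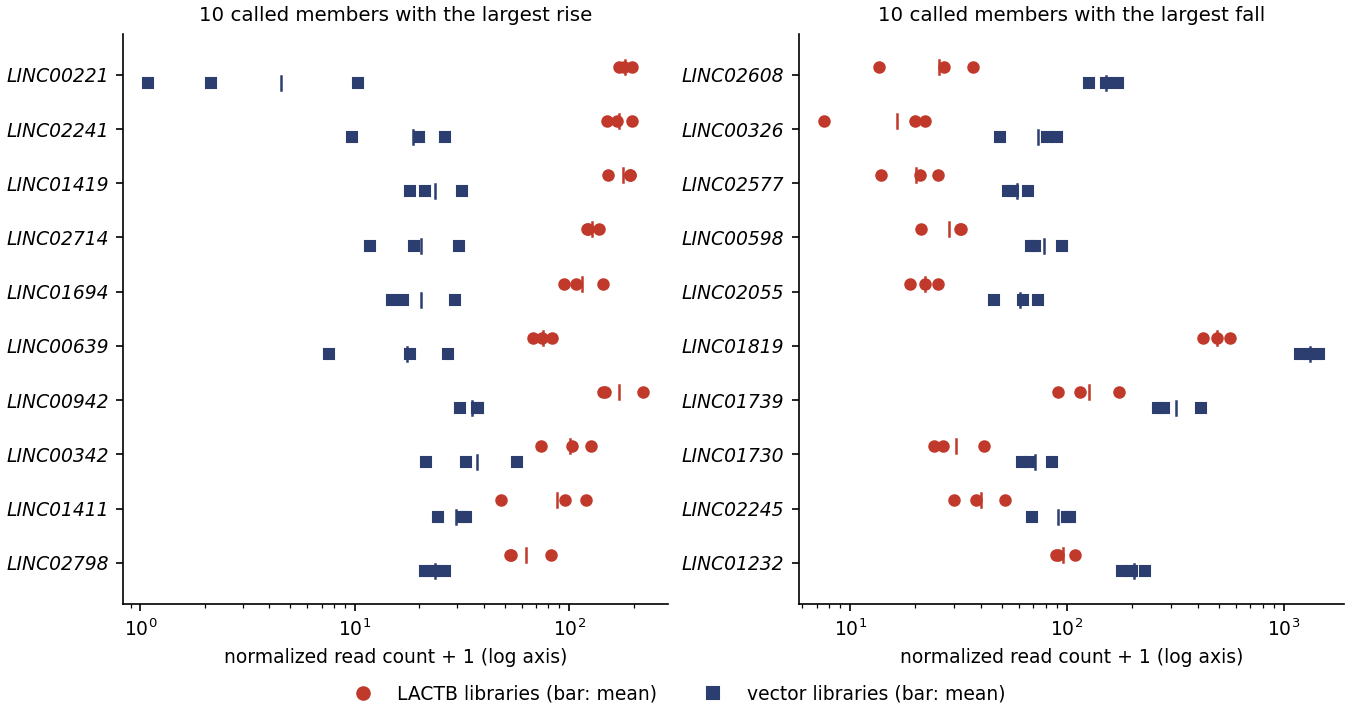
Normalized read count + 1 in each library (log axis) for the 10 called LINC RNAs with the largest rise (left) and the largest fall (right) whose groups did not overlap. Red circles are the 3 LACTB libraries, blue squares the 3 vector libraries, short bars the group means; LINC00221 shows the widest gap, and LINC01819 is the only one of the 20 whose group means both exceed 400 (492 in LACTB and 1315 in vector).

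The falls were led by LINC02608. LINC02608 (chromosome 1, 212225278 to 212238977, minus strand), whose longest annotated transcript has 362 bases, held 12.5, 26.0 and 35.8 normalized read counts in LACTB libraries, against 171, 126 and 151 in vector libraries (-2.65, SE 0.33, adjusted p = 1.2e-06). LINC00326 (chromosome 6, 133088080 to 133106578) held 6.54, 21.0 and 18.99 with LACTB, against 89.3, 79.9 and 48.1 with vector (-2.25, SE 0.41, adjusted p = 0.00011). Its nearest tested coding gene, EYA4, a transcriptional co-activator with phosphatase activity 134020 bases away, fell with it, to 79.2 ± 19.8 in LACTB cells, against 178 ± 15.9 in vector cells (SD, n = 3 each; limma adjusted p = 0.00029).

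LINC01819 (chromosome 2, 43027853 to 43039547, minus strand) was the most abundant of the leading falls and the best measured. It held 566, 488 and 423 in LACTB libraries, against 1310, 1186 and 1450.2 in vector libraries (-1.42, SE 0.14, adjusted p = 6.4e-08). The lowest vector library was more than 2 times as high as the highest LACTB library. LINC01739 (chromosome 1, 62975751 to 63022504) held 89.7, 114 and 172 with LACTB, against 412, 262 and 279 with vector (-1.36, adjusted p = 7.1e-05).

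LINC02577 (chromosome 7, 106774955 to 106838480) went against its nearest tested coding gene. It held 19.99, 24.4 and 12.8 in LACTB libraries, against 52.3, 65.4 and 55.3 in vector libraries (-1.58, adjusted p = 0.00077), while PIK3CG, a phosphoinositide 3-kinase catalytic subunit gene 26798 bases away, stood at 151, 152 and 155 with LACTB, against 15.9, 11.2 and 10.7 with vector (3.52, adjusted p = 8.4e-09).

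LINC00598 (-1.46) and LINC01232 (-1.07), both on chromosome 13, share exon bases with a coding gene. LINC00598 shares them with FOXO1 on the same strand, and FOXO1 stood at 321 ± 55.2 in LACTB and 382 ± 117 in vector cells (SD, n = 3 each; limma adjusted p = 0.41). LINC01232 shares them with TM9SF2 on the opposite strand, which stood at 5718 ± 151 and 5755 ± 299 in LACTB and vector cells (limma adjusted p = 0.95). LINC02055 (-1.43), LINC01730 (-1.23) and LINC02245 (-1.20) complete the 10, with adjusted p of at most 0.0029 and vector means of 59.6 to 89.8. All 20 leading changes stayed past the threshold under every alternative that gave them a value, the 6 left-out libraries included. They were picked from these same data as called, non-overlapping and largest, so this is no separate support. The leading rises had a group mean of 38 or more in LACTB only, and 6 of the 10 leading falls in vector only.

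Starts annotated in RefSeq are shown for some of the RNAs that lead each direction. Where the transcripts begin in these cells was not measured. LINC01419 among the rises, and LINC00326, LINC02577 and LINC02055 among the falls, changed more than some of those shown but are not printed. RefSeq (GRCh38.p14) gave a start for 95 of the 140, and the printed windows run from 250 bases before to 50 after it, 5′ to 3′. Capitals mark matches, on either strand, to the TATA box letters TATAAA, the CCAAT box letters CCAAT, the GC box letters GGGCGG, the cAMP response letters TGACGTCA, the AP-1 letters TGANTCA or the E-box letters CACGTG, and no motif contains another.
LINC00221: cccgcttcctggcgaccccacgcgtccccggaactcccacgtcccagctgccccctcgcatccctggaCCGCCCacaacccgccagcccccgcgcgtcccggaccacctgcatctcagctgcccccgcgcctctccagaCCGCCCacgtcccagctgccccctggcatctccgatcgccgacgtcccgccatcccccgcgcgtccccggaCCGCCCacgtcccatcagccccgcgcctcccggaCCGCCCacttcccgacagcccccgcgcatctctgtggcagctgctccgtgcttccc
LINC02241: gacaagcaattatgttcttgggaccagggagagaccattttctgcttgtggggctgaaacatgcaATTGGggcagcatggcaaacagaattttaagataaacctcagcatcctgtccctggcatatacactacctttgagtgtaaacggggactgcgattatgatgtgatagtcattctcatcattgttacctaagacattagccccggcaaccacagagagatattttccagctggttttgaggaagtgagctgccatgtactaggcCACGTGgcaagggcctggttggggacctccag
LINC02714: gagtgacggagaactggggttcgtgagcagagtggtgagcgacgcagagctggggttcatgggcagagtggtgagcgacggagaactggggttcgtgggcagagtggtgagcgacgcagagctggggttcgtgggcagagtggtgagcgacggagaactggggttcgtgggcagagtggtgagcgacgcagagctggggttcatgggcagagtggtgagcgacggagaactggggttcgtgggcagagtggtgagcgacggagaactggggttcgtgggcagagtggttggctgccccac
LINC02608: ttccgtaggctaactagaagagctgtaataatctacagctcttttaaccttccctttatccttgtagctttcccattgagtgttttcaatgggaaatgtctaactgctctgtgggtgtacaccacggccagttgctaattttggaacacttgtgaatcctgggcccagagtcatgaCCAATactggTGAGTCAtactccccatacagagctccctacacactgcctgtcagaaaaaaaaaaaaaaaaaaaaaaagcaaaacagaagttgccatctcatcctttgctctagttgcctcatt
LINC00598: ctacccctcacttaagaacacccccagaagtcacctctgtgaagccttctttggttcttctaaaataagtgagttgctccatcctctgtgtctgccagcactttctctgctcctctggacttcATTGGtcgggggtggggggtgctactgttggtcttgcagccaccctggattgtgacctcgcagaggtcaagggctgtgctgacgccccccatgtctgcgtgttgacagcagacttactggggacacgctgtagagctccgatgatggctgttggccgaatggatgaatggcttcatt
LINC01819: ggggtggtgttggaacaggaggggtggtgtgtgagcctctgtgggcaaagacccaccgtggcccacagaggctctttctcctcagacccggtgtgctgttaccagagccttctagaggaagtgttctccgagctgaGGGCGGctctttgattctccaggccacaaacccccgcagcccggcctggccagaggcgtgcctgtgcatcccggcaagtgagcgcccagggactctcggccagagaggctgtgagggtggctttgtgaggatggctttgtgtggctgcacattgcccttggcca

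These windows lie at chr14:106482189-106482488 on the plus strand for LINC00221, chr5:20611590-20611889 plus for LINC02241, chr11:134735695-134735994 plus for LINC02714, chr1:212234687-212234986 minus for LINC02608, chr13:40480955-40481254 minus for LINC00598 and chr2:43039494-43039793 minus for LINC01819. The RefSeq start matched the GENCODE start for LINC00221 and LINC02241 and lay 4 bases from it for LINC01819, but was 349 bases away for LINC02714, 4241 for LINC02608 and 54803 for LINC00598. The LINC00221 window is CpG-rich, with 36 CpG and 75.3% GC, and holds 4 GGGCGG matches on the other strand. The LINC02241 window has 4 CpG and the LINC02608 window 2. The LINC02714 window repeats a short unit and has no match to any of the 6 motifs.

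Over the 95 members with a start, CCAAT was found in 46.3% and GGGCGG in 46.3%, against 35.7% and 44.7% of all 27305 RefSeq promoters of that length and 37.1% and 70.7% of the 9984 that belong to tested genes. TGANTCA was in 12.6% of members, 7.69% of all promoters and 4.34% of those of tested genes. It stood in 5 of 25 members called higher, 2 of 18 called lower and 5 of 52 not called. In the same 3 groups GGGCGG stood in 8, 6 and 30 windows and CCAAT in 12, 6 and 26. TATAAA was in 8.42% of members, 12% of all promoters and 5.18% of those of tested genes. CACGTG was in 9.47%, 7.43% and 10.2% of the same sets, and TGACGTCA in 3.16%, 1.97% and 3.28%. The median member window had 13 CpG, against 14 over all promoters and 26 over those of tested genes. Matches are a description of letters, with no test.

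Members with a known role were spread over rises, falls and neither. LINC01116, an RNA beside the HOXD cluster (chromosome 2, 176629589 to 176637931, minus strand), held 1003, 881 and 944 in LACTB libraries, against 646, 524 and 564 in vector libraries (0.71, SE 0.14, adjusted p = 0.00023). Its neighbour LINC01117, on the opposite strand with an overlapping start and named here after its values were seen, held 55.3, 62.9 and 80.3, against 19.5, 47.4 and 41.4 with vector (0.93, SE 0.34, adjusted p = 0.027). That call was lost without LACTB library 3 and without vector library 1, with adjusted p up to 0.14 and a difference down to 0.55. Because the pair overlap and no strand setting is given, reads of one may be counted for the other. MTX2, the nearest tested coding gene at 291564 bases, differed by -0.01 (adjusted p = 0.94).

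LINC00665 (chromosome 19, 36313067 to 36331718), which lies among zinc-finger genes, held 1258, 1290.1 and 1361 with LACTB, against 1030.5, 871 and 954 with vector (0.46, SE 0.13, adjusted p = 0.0044). ZFP14, 2735 bases away, rose by 0.85 (0.30, adjusted p = 0.25, with length and GC removed). LINC00707 (chromosome 10) rose by 1.22, with 180, 148 and 165 in LACTB libraries, against 80.9, 62.4 and 68.1 in vector libraries (adjusted p = 0.00018). LINC00467 (chromosome 1, 211382803 to 211435333) fell by 0.62, with 271, 312 and 369 in LACTB libraries, against 541, 450 and 471 in vector libraries (adjusted p = 0.0037). LINC00963 (chromosome 9), second in mean level, fell to 1891, 2012 and 2032 in LACTB libraries, against 2740, 3434 and 3341 in vector libraries (-0.67, SE 0.12, adjusted p = 6.5e-05).

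LINC01578 is the RNA now called CHASERR. In the mouse, loss of Chaserr raises expression of its downstream neighbour Chd2, a chromatin remodeller. Here LINC01578 overlaps the exons of AC013394.1 on the same strand and held 1633, 1508 and 1698 in LACTB libraries, against 2054, 1950 and 1780 in vector libraries, a difference of -0.26 that missed the threshold (SE 0.12, adjusted p = 0.070). CHD2, 488 bases away, stood at 1338, 1393 and 1271 in LACTB libraries, against 1019, 1083 and 980.4 in vector libraries (0.38, SE 0.12, adjusted p = 0.013). LACTB libraries lay below vector libraries for the noncoding RNA and above them for CHD2. With transcript length and GC removed, or after median centring, the LINC01578 difference passed (-0.42, adjusted p = 0.0015, and -0.39, adjusted p = 0.0099), as it did without vector library 3, and with equal column totals it was -0.06 (adjusted p = 0.66). The CHD2 difference did not pass once length and GC were removed (0.01, adjusted p = 0.91), after median centring (0.24, adjusted p = 0.11) and without LACTB library 1 (0.37, adjusted p = 0.052) or 2 (0.34, adjusted p = 0.091).

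LINC RNAs are also known as microRNA hosts. MicroRNA hairpins lay inside 6 of the members in RefSeq, and 2 of these host well known families on their own strand. The mature sequences are shown because they are the small RNAs such a transcript can give rise to, with the seed, bases 2 to 8, in capitals.
hsa-miR-9-5p: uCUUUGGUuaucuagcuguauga
hsa-miR-9-3p: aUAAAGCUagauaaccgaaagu
hsa-miR-30a-5p: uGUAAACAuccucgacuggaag
hsa-miR-30c-5p: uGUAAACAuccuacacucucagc
hsa-miR-30a-3p: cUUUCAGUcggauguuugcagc
hsa-miR-30c-2-3p: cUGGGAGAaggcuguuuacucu

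LINC00461 (chromosome 5, 88507546 to 88691041, minus strand) holds MIR9-2, the source of miR-9-5p and miR-9-3p, microRNAs of neural progenitors. Its values of 82.1, 117 and 101 in LACTB libraries lay within the 102, 162 and 67.4 of the vector libraries (-0.07, SE 0.28, adjusted p = 0.85). LINC00472 (chromosome 6, 71344344 to 71420769, minus strand), named for its hairpins after its value was seen, holds MIR30A and MIR30C2. It held 169, 202 and 137 in LACTB libraries, against 99.0, 94.4 and 72.5 in vector libraries (0.92, SE 0.24, adjusted p = 0.0025). The 5p products of both hairpins share the seed GUAAACA, while the 3p products do not share theirs. MicroRNAs themselves were not measured here.

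The RNAs that moved least included several that start beside a coding gene. LINC00205 (1206 ± 35.9 in LACTB and 1220 ± 206 in vector cells, SD, n = 3 each), LINC01560, LINC00987, LINC01547 and LINC02609 had log2 differences within 0.03 of 0, with standard errors of 0.14 to 0.28. LINC00205, LINC01560 and LINC01547 each start within 1000 bases of a coding gene on the opposite strand, namely POFUT2, ZNF41 and FAM207A. FAM207A fell to 1532 ± 157 in LACTB cells, against 2858 ± 317 in vector cells (SD, n = 3 each; limma adjusted p = 3.3e-06), and ZNF41 rose by 0.71 (adjusted p = 0.012), which did not pass once length and GC were removed, without LACTB library 1 and without vector library 3 (adjusted p up to 0.062).

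Of the 140, 17 start within 1000 bases of a coding start on the opposite strand, and 13 of these did not pass, with 2 rises and 2 falls. Over all members 25% rose and 18.6% fell, and over all tested genes 27.4% and 24.6%. LINC01301 rose by 0.98 beside RAB2A (0.19, adjusted p = 0.17), and LINC01134 by 0.74 beside C1orf174 (0.19, adjusted p = 0.27). LINC01770 fell by 0.68 beside VWA1, which fell by 1.23, and LINC00476 fell by 0.41 beside ERCC6L2, which rose by 1.07. LINC00476 shares exon bases with ERCC6L2 on the opposite strand. These 4 were named after their values were seen. LINC01301 kept its call under every alternative with a value, while LINC01134 lost it under 7, LINC00476 under 8 and LINC01770 under 8. LINC02588, a member that did not pass (-0.67), starts beside NOVA1, a neuronal splicing regulator that stood at 184 ± 17.9 in LACTB cells and 32.4 ± 1.34 in vector cells (SD, n = 3 each; limma adjusted p = 7.9e-08).

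Over the 139 members with a position, the difference of a LINC RNA followed that of its nearest tested coding gene little, with a Spearman rho of 0.06, against 0.29 over 11881 coding genes and their nearest tested coding gene. The pairs share libraries and scaling, and genes are not independent replicates. The sets were not matched, so the rho values are no like match. The median SE was 0.262 for members and 0.145 for all tested genes. The neighbour lay over 100000 bases away for 37 of 139 members and 1247 of 11881 coding genes. Signs matched for 72 of 139 (51.8%), and for 61.2% of the coding pairs. Where both were called, 28 of 40 went the same way (70%), beside 72.4% of coding pairs. By distance, this was 10 of 11 at 1 to 10000 bases, 9 of 13 beyond that to 100000 and 6 of 12 farther away (coding pairs 71.8%, 69.1% and 74.6%), with 3 of 4 where the gene bodies overlap. Over all pairs at 1 to 10000 bases, called or not, signs matched for 22 of 42 (52.4%). Against the median of the 50 tested genes around, rho was 0.01.

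**Figure D3:**
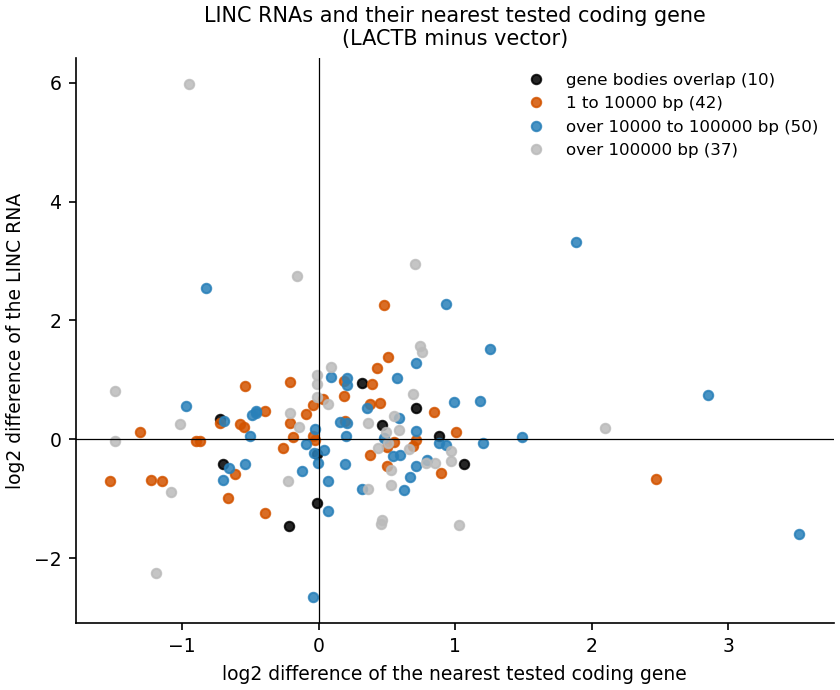
Log2 difference of each of 139 LINC RNAs (vertical) against that of its nearest tested coding gene (horizontal), both LACTB minus vector, coloured by the distance between the gene bodies. The points form no line (rho 0.06); LINC00221 is at the top left and LINC02577 with PIK3CG at the lower right.

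Overlap limits what can be assigned to a LINC RNA. GENCODE 29 types 116 of the 139 matched members as lincRNA, 12 as processed transcript and 7 as antisense. It types 1, LINC02693, as protein coding, and 16 members have a single exon interval. In GENCODE 29, 43 of 139 members share exon bases with another gene on either strand, 10 of them with a coding gene, and 7 of the 20 leading changes share such bases. Among the 96 that share none, 24 rose, 16 fell and 56 did not pass. Over all 140 members 25% rose and 18.6% fell, and over all tested genes 27.4% and 24.6%. Near-identical copies, meaning 95% identity over at least 50% of the longest transcript, were found for 6 members, of which LINC00342 alone was called.

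The difference between groups runs with transcript length and GC content over all genes, with a Spearman rho of 0.41 for length and -0.45 for GC over 12840 genes. Over the LINC RNAs rho was 0.10 and 0.08. LINC transcripts were shorter, with a median of 2147 bases against 3613 for all tested genes, and similar in GC (48.8% and 48.3%). Once a smooth trend on both was removed from every library, 49 members rose (35.3%, all genes 26.9%) and 25 fell (18%, all genes 21.4%), and the median member moved to 0.25, against 0.06 for all genes. Of the 61 called as deposited 55 stayed called, all in the same direction, and 19 others joined. LINC01547, not called as deposited, was called higher (0.42, adjusted p = 0.048).

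**Figure D4:**
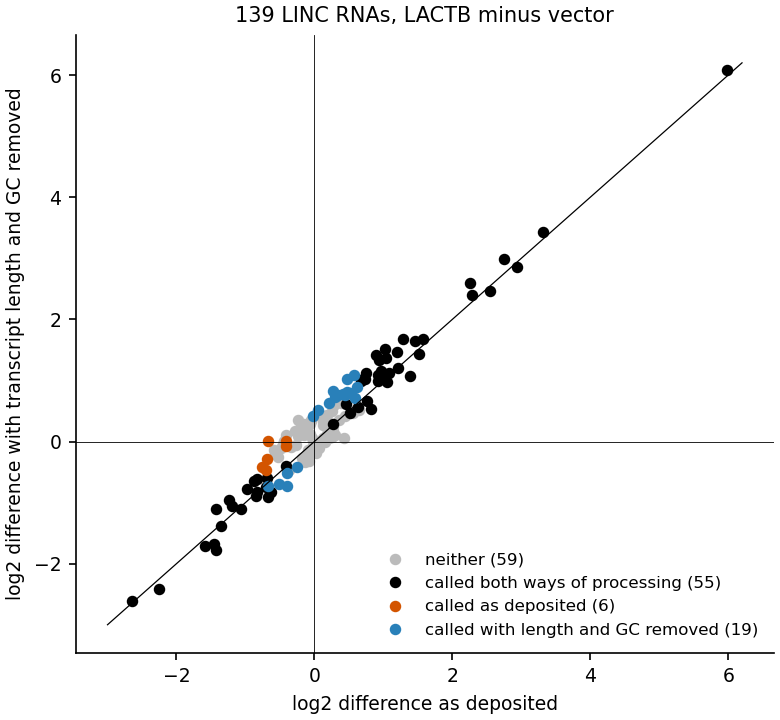
Log2 differences of 139 LINC RNAs as deposited (horizontal) and after a trend on transcript length and GC was removed from every library (vertical), LACTB minus vector; the diagonal marks equal values. Black points (55) were called both ways, orange (6) only as deposited, blue (19) only after removal and grey (59) neither way, and those called one way only lie within 1 of 0 on the horizontal axis.

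Other noncoding RNA families gave a comparison, where 27.4% of all tested genes rose and 24.6% fell. Small nucleolar RNA host genes (SNHG), whose introns carry snoRNAs, fell in 11 of 23 tested cases and rose in 3, with a median of -0.35. Among them SNHG8 stood at 840 ± 30.7 in LACTB cells and 1670 ± 267 in vector cells, SNHG19 at 394 ± 71.2 in LACTB cells and 854 ± 104 in vector cells, and SNHG14, which rose, at 629 ± 31.7 in LACTB cells and 276 ± 84.2 in vector cells (SD, n = 3 each). The median stayed negative under every scaling (-0.16 to -0.48), and with length and GC removed 5 rose and 6 fell. Of 17 tested microRNA host genes 5 rose and 3 fell (3 and 4 with quantile normalization). MIR3142HG fell to 229 ± 25.6, against 902 ± 203 in vector cells, MIR210HG, which hosts a hypoxia-induced microRNA, fell by 1.19, and MIR1915HG rose by 1.35. Among 225 antisense RNAs 33 rose and 26 fell (20 and 39 after median centring), and of 2 tested intronic or overlapping transcripts GABPB1-IT1 fell by 1.01. Called either way were 60.9% of SNHG genes, 47.1% of microRNA host genes and 26.2% of antisense RNAs, beside 51.9% of all tested genes. Levels were not matched between these sets.

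Of 9 tested RNAs that once had a LINC symbol, none rose and 3 fell (all tested genes 27.4% and 24.6%), namely BRD3OS (-0.54), INAFM2 (-0.47) and SMIM26 (-0.80), the last 2 now known to encode small proteins. NORAD, which binds Pumilio proteins, differed by -0.11 (adjusted p = 0.43) and CYTOR by 0.12 (adjusted p = 0.47). Among 21 well studied long noncoding RNAs 5 rose and 7 fell, so 57.1% were called, beside 51.9% of all tested genes. H19, an imprinted RNA, stood at 187 ± 28.2 in LACTB cells and 973 ± 99.6 in vector cells, and KCNQ1OT1, another imprinted RNA of chromosome 11, at 262 ± 39.3 in LACTB cells and 56.4 ± 17.2 in vector cells (SD, n = 3 each). MALAT1 differed by 0.07 (adjusted p = 0.73).

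**Figure D5:**
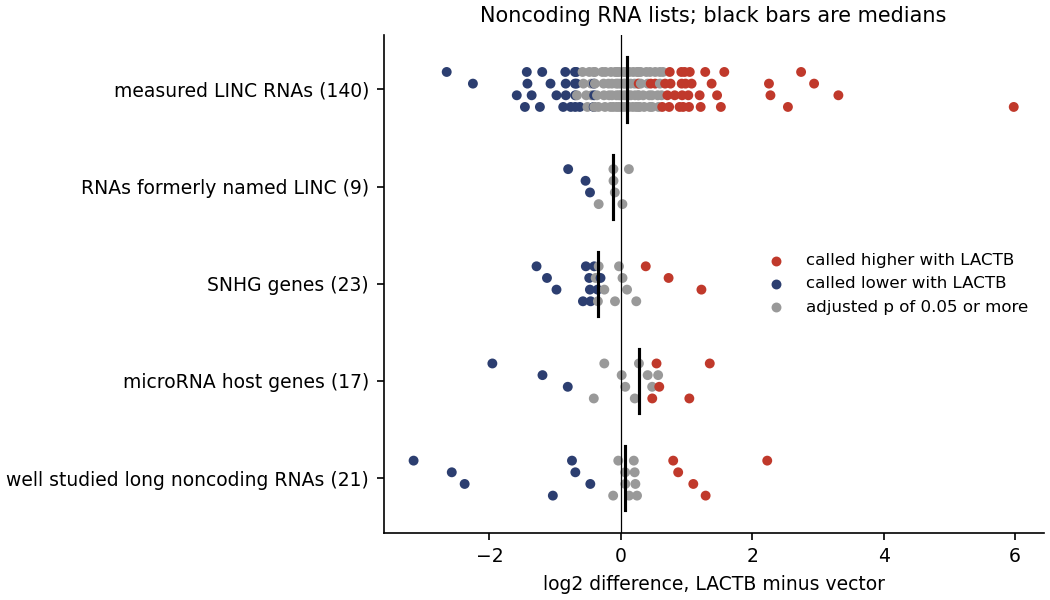
Log2 difference (LACTB minus vector) of each tested RNA in the measured LINC set and 4 other noncoding lists, red where called higher, blue where called lower, grey where not called; black bars are list medians. Medians are 0.09 for the LINC RNAs, -0.11 for RNAs formerly named LINC, -0.35 for SNHG genes, 0.28 for microRNA host genes and 0.07 for the well studied RNAs. Median centring puts the LINC and well studied medians below 0 (-0.04 and -0.06), and equal column totals put that of RNAs formerly named LINC above 0 (0.08).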

How the data were processed

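RNA-seq libraries from LN229 cells (3 with LACTB, 3 with vector) were compared. Per the submitters' processing notes, the tools and builds named are HISAT2 and hg38, and no read counter, annotation, strand setting or normalization is named by the labels. The table deposited by the authors gives a signal for each gene in each library, in normalized read counts that are mostly not whole. No single step made low values whole (36.6% to 59.6% within a tolerance of 0.05 for the best step of each library, 10% by chance), so reads were not recovered, no count model was used and depth is unknown.

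Values under 1e-10 were set to 0 and log2(value + 1) was taken, which understates changes at low levels. The low-value filter was a mean of 1 CPM equivalent (37.7 normalized counts), and genes above it were tested with limma 3.58.1 in R 4.3.3 (trend, robust, two-sided, Benjamini-Hochberg adjustment, threshold 0.05), so all 140 members entered; of 9 repeated symbols the row with the higher mean was kept. The fit was tested on simulated data.

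Positions, lengths, GC and overlaps came from GENCODE 29 (GRCh38, bedtools 2.31.1), in which 139 of 140 members matched 1 gene, and sequences from RefSeq. RefSeq starts were those nearest the GENCODE start. Named were the 10 called members with the largest change each way whose groups did not overlap, the 6 with the highest mean, the 5 with the smallest difference, members with a role on a list, and the 3 just inside 38. Members and lists were chosen with earlier results of these data known; distance classes, level ranges and the copy search were chosen after seeing the values. Alternatives were 3 other scalings, 2 other filters, 2 other pseudocounts, limma without trend and robust settings, the replicate number as a block, removal of length and GC, stricter thresholds and leaving out each library. Figures used matplotlib 3.10.9.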

Additional observations from a re-analysis of the deposited data

How the results depend on the processing

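Direction and call of LACTB held under every alternative (log2 difference 3.07 to 3.40). Scaling set the balance of LINC RNA calls, with 35 higher and 26 lower as deposited, 29 and 35 after median centring, 30 and 34 with quantile normalization, and 48 and 18 with equal column totals, where the median of all tested genes moved from 0.05 to -0.09, 0.01 and 0.24. With equal column totals 1913 of all genes were lower, against 3177 as deposited. A filter at 5 CPM left 39 members, of which 7 rose and 11 fell, fewer because fewer were tested. At an adjusted p of 0.01, 22 members rose and 19 fell. With a 2-fold minimum 18 rose and 10 fell, and 1400 of all 6721 called genes remained, 820 higher and 580 lower. Leaving out 1 library gave 26 to 32 members higher and 19 to 27 lower. Of the 35 members called higher 22, and of the 26 called lower 18, were called under every alternative with a value, and 32 of the 79 not called passed under at least 1. With length and GC removed, LINC01770 and LINC02381, lower as deposited, stood at 0.003 and 0.01, and LINC01547 at 0.42; the cause was not tested. The labels do not say whether the numbers 1 to 3 pair the libraries. Same-number correlations of deviations were 0.02, 0.18 and 0.003, and those of different numbers -0.19 to 0.16, which with 3 libraries a group cannot settle pairing. With the replicate block 35 members rose and 26 fell. Precision rests on 3 libraries a group.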

Other observations

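Under the mean of 38 stood 696 further LINC RNAs, of which 54 reached 38 in at least 1 library and 257 had a mean under 1. With no filter on low values, 28 of the 696 were called higher and 28 lower by limma, beside 29.2% of 24480 genes called either way. LINC01687 held 23.1, 44.6 and 27.6 normalized read counts in LACTB libraries, against 0.0478, 9.63 and 0.0461 in vector libraries. LINC01531 held 1.81, 0 and 0.00861 with LACTB, against 20.4, 40.8 and 29.8 with vector. LINC01482, LINC02683 and LINC02684 were listed at 0 in all 3 LACTB libraries, against vector means of 10.8, 8.60 and 8.98, and LINC01634 and LINC01242 were listed at 0 in all 3 vector libraries, against LACTB means of 9.71 and 7.49. These were chosen after their values were seen, and values this low have no known depth behind them. Each of the 3 vector columns lists the same number of rows above 0 (22538), where the LACTB columns list 20809, 20500 and 23061. Zeros and values near 0 in the vector libraries may therefore not be 3 separate observations, and the reason was not tested.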
